A study of Caenorhabditis elegans with 12 samples.

Results

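Wild type N2 worms at the late L4 larval stage were kept for 6 h on agar containing 200 mM NaCl, and their transcripts were set against those of N2 worms kept for the same time on standard agar with 51 mM NaCl. These are 4 of the 12 RNA libraries of a study of *Caenorhabditis elegans*, 2 libraries at each concentration, and a library at 200 mM was paired with the one at 51 mM that carries the same replicate number. The remaining 8 libraries come from *osm-9(ok1677)* worms, a loss-of-function mutant of a sensory cation channel, 4 at each concentration and under the same conditions. They entered the choice of tested loci, the scaling, the estimate of the spread and a test of whether the response differed between strains. The mutant's own response is given for comparison. Whole worms were extracted, so a level is an average over all tissues, and fewer cells of a type cannot be told apart from less RNA per cell.

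A worm placed in a hypertonic medium loses water through its thin cuticle and epithelia and shrinks. It is known to recover its volume and to make glycerol, an organic osmolyte, through glycerol-3-phosphate dehydrogenase in the epidermis and intestine. It also accumulates trehalose. Osmotic stress is known to switch on antimicrobial peptide genes in the epidermis as well, and it damages proteins. The question was which genes of the wild type worm were induced or lowered at 200 mM NaCl.

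The N2 libraries held between 19474200 and 21418277 counts, and 3 counts in a library, the limit that a count of 0 allows, equal between 0.140 and 0.154 CPM, which are counts scaled to a library total of 1000000. Such limits and all counting intervals cover counting error only. Of 41420 loci listed, 21204 had a count in some library and 15403 were tested. The summed CPM of 6 vitellogenin genes, which encode yolk proteins and are known to come on in the intestine around the adult molt, was 44810 and 39510 at 51 mM and 42040 and 36840 at 200 mM. The summed level of the 5 germ line markers was 1456 and 1465 CPM at 51 mM and 1586 and 1372 CPM at 200 mM. No member of the vitellogenin, oocyte, adult collagen or germ line lists was called in edgeR, with 2, 4, 1 and 0 members at a raw p at or under 0.05, and DESeq2 called 2 vitellogenin genes, *vit-3* and *vit-4*, as lowered. Of 49 sperm loci *ssp-33* was lowered, by 0.66 on the log2 scale.

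In N2, 227 loci were raised at 200 mM NaCl and 273 were lowered, which is 1.47% and 1.77% of those tested and 3.25% together. At a raw p at or under 0.05, with no adjustment, 1241 were raised and 1171 lowered (8.06% and 7.6%). A locus was called when edgeR's quasi-likelihood test gave an adjusted p of 0.05 or less in a fit that pairs the same-numbered libraries. The median log2 fold change was 0.87 among the raised loci and -1.0 among the lowered ones. Of the raised loci 91 were past 2-fold and 23 past 4-fold, and of the lowered loci 138 were past 2-fold and 31 past 4-fold. Both 200 mM libraries lay above both 51 mM libraries for 194 of the 227 raised loci, against a background of 13.8% of all tested loci, and below them for 251 of the 273 lowered loci, against 13.1%.

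The number of calls rested on the pairing. With 1 mean per strain and concentration in place of the pairs, 13 loci were raised and 17 lowered (0.0844% and 0.11%), all of them among the calls above. The 13 raised were *ilys-2*, *cnc-7*, *cpt-3*, *cyp-13B1*, *nlp-29*, *nlp-28*, *gpdh-2*, *ogt-1*, *endu-2*, *hadb-1*, *T02B11.4*, *F57H12.6* and *T10B10.4*. Of the 227 and 273 loci, 174 and 229 had a raw p at or under 0.05 in that fit. Leaving out pair 1 gave 180 raised and 143 lowered loci, of which 101 and 125 were among the calls above, and leaving out pair 2 gave 56 and 100, of which 49 and 92 were.

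**Figure D1:**
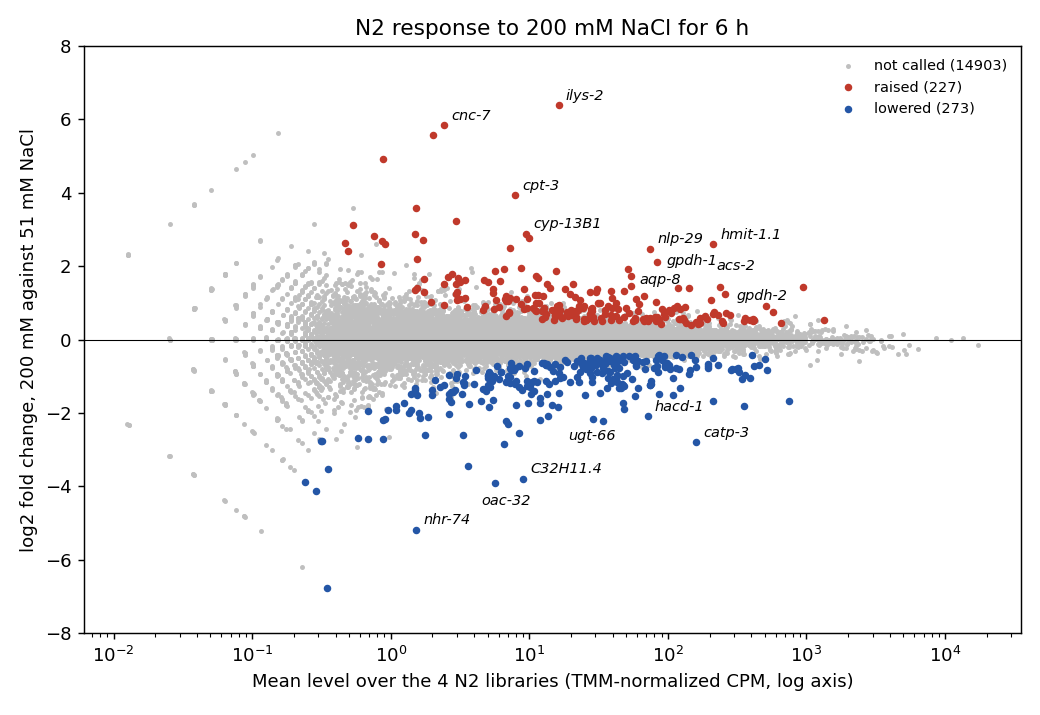
Each point is 1 of the 15403 tested loci, with its mean level over the 4 N2 libraries on the horizontal axis (CPM after trimmed mean of M-values scaling, log axis) and its log2 fold change at 200 against 51 mM NaCl on the vertical axis. The 227 raised loci are red, the 273 lowered loci blue and the others grey, and *ilys-2* is the highest red point at 6.39.

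The response was not the same size in both pairs. Among loci with a mean of at least 1 CPM, 137 were past 2-fold up in pair 1, of which 123 were also above 51 mM in pair 2 and 67 were past 2-fold there. Of the 386 loci past 2-fold up in pair 2, 258 were above 51 mM in pair 1. On the lowered side 162 of 194 loci from pair 1 and 188 of 204 from pair 2 kept their direction in the other pair. For loci from pair 2 this share was higher on the lowered than on the raised side (92.2% against 66.8%). For loci from pair 1 it was smaller (83.5% against 89.8%). Across these 13058 loci the log2 ratios of the pairs had a Pearson r of 0.46 and a Spearman rho of 0.31, as a description across genes, which are not independent replicates. In a principal component analysis of the 4 libraries, component 1 (52.9% of the variance) separated the replicate numbers and component 2 (30.2%) separated the NaCl concentrations.

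**Figure D2:**
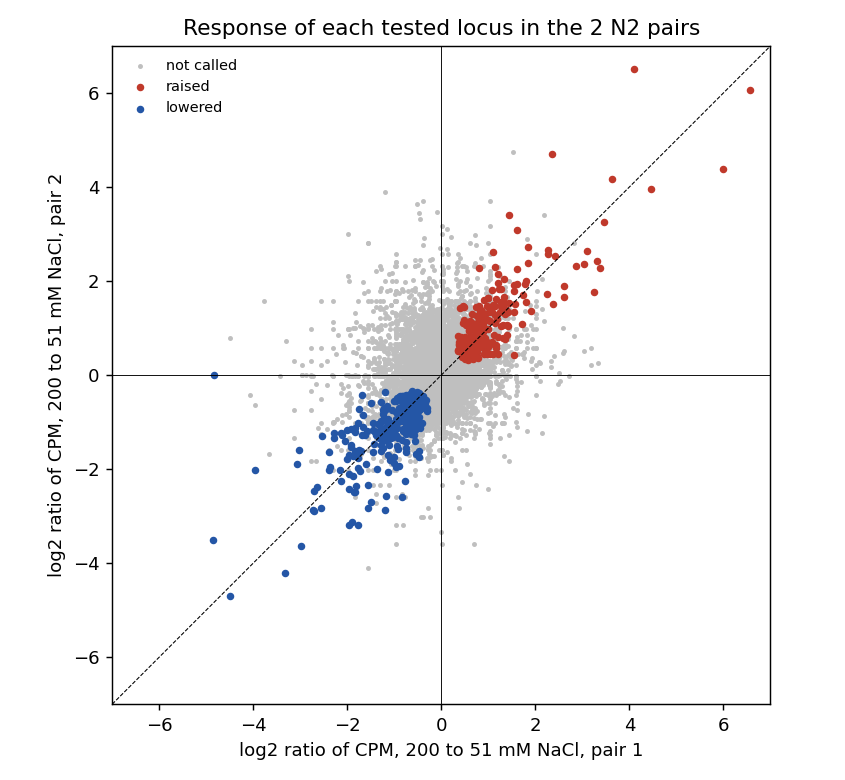
Each point is 1 tested locus, with its log2 ratio of CPM at 200 to 51 mM NaCl in pair 1 on the horizontal axis and in pair 2 on the vertical axis, and the dashed line marks equal ratios. The 227 raised loci (red) all lie in the upper right and 272 of the 273 lowered loci (blue) in the lower left, while grey loci in pair 2 extend further up than in pair 1.

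Genes that make, break down or carry organic osmolytes were mostly raised. Of the 14 osmolyte loci, all of them tested, 8 were raised and 1 was lowered, against 1.47% and 1.77% of all tested loci, and their median log2 fold change was 0.67 against 0.02 over all loci. Glycerol synthesis, proton-coupled *myo*-inositol transport and trehalose synthesis were each represented. Without the pairing 1 of the 9 calls was made, that of *gpdh-2*, and 7 were made without pair 1 and 3 without pair 2.

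*gpdh-1* encodes the glycerol-3-phosphate dehydrogenase best known as a reporter of osmotic stress, and it lies on chromosome I from 14075837 to 14078211 in the WBcel235 assembly. Its level was 19.5 and 47.2 CPM at 51 mM NaCl and 120 and 149 CPM at 200 mM. Both stressed libraries lay above both controls, and the log2 fold change was 2.12 ± 0.30 (SE, adjusted p = 0.0017). *gpdh-2*, the second enzyme of this kind, was at 126 and 188 CPM and then at 334 and 393 CPM. Its groups did not overlap either, with a log2 fold change of 1.24 ± 0.11 (adjusted p = 6.8e-05). Per kilobase of exon, *gpdh-2* had the higher level in each of the 4 libraries, 81.7 and 122 CPM at 51 mM against 14.9 and 36.1 CPM for *gpdh-1*, and 217 and 256 CPM at 200 mM against 91.7 and 114 CPM.

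The 3 *hmit* genes encode proton-linked *myo*-inositol transporters, and all 3 were raised. *hmit-1.1* was the most raised osmolyte gene, at 42.3 and 82.7 CPM in control worms and 308 and 416 CPM in stressed worms. The groups did not overlap, and the log2 fold change was 2.59 ± 0.20 (adjusted p = 2.9e-05). *hmit-1.2*, its neighbor on chromosome V, went from 7.07 and 5.55 CPM to 15.2 and 34.3 CPM. Its change was uneven, 1.1 on the log2 scale in pair 1 and 2.62 in pair 2, and its adjusted p was 0.0033 over both pairs and 0.11 without pair 2. *hmit-1.3* was raised by 1.01 ± 0.14 (adjusted p = 0.0014). The synthase *inos-1*, which makes *myo*-inositol phosphate, was not called (155 and 91.7 CPM, then 128 and 137 CPM), and its locus overlaps *xpf-1* on the opposite strand by 1984 bases, so that reads of the pair may not be told apart.

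Of the trehalose genes, the synthase *tps-1* was raised and the synthase *tps-2* was not called. *tps-1* had 47.2 and 42.9 CPM at 51 mM and 77.3 and 77.9 CPM at 200 mM, a log2 fold change of 0.79 ± 0.11 (adjusted p = 0.0015). Its groups were well separated and tight, while *tps-2* was at 261 and 181 CPM and then 230 and 186 CPM. The phosphatase *gob-1*, which acts after them, was not called, with 87.3 and 86.5 CPM and then 96.0 and 95.5 CPM. Among the trehalases, which split trehalose into glucose, *tre-5* (log2 fold change 1.38) and *tre-3* (0.56) were raised, *tre-2* (-0.50) was lowered, and *tre-1* (-0.25) and *tre-4* (-0.20) were not called. *tre-5* overlaps *sptl-1* on the other strand by 2308 bases.

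**Figure D3:**
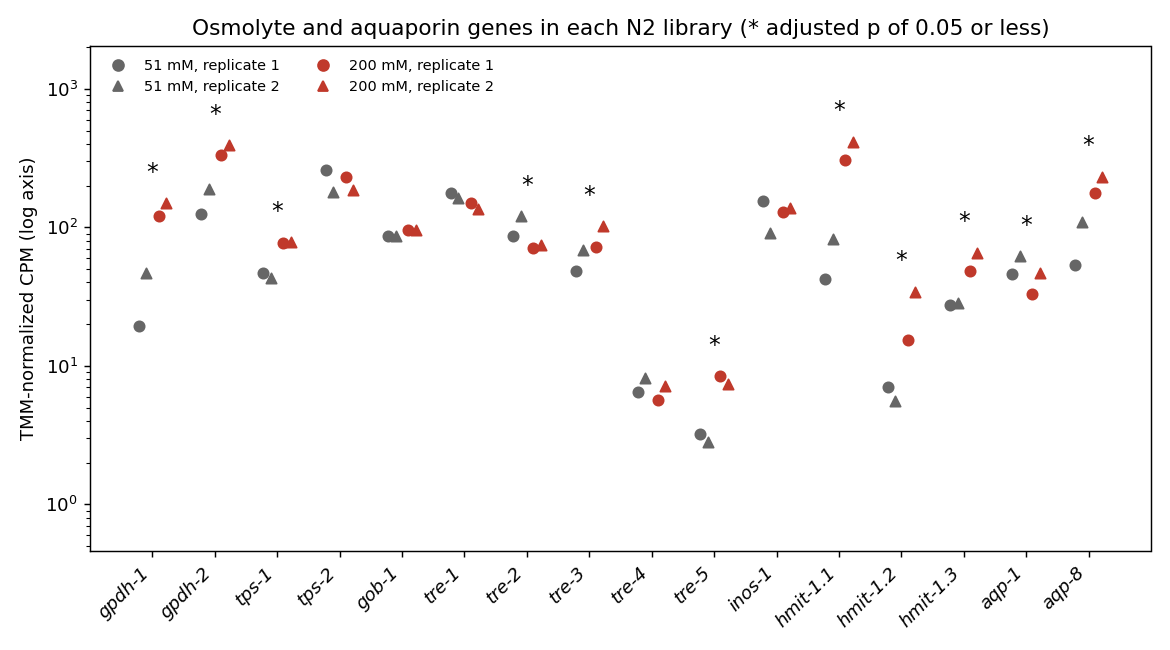
Level of each osmolyte gene and of the aquaporin genes *aqp-1* and *aqp-8* in each N2 library (CPM, log axis), grey at 51 mM and red at 200 mM NaCl, with circles for replicate 1 and triangles for replicate 2 and a star at adjusted p of 0.05 or less. The red points of *hmit-1.1* (308 and 416 CPM), *gpdh-1* and *gpdh-2* lie above their grey points, while *tps-2*, *gob-1* and *inos-1* overlap or nearly so.

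Among 11 aquaporin and aquaglyceroporin loci tested, channels for water and in some cases glycerol, *aqp-8* was raised and *aqp-1* lowered. Each is 9.09% of those tested, against 1.47% raised and 1.77% lowered of all loci. *aqp-8* had 53.5 and 109 CPM at 51 mM and 177 and 233 CPM at 200 mM, with no overlap and a log2 fold change of 1.41 ± 0.14 (adjusted p = 2.3e-04). Without the pairing *aqp-8* was not called (adjusted p = 0.24 in edgeR). *aqp-1* changed by -0.44 ± 0.11 (adjusted p = 0.048), and it was called neither without the pairing nor without either pair.

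Ion transport genes moved little as a group, with a median log2 fold change of 0.06 over 28 tested loci, but the list held 1 steep fall. *catp-3*, which encodes the catalytic subunit of a P-type cation ATPase (chromosome V, 8076012 to 8079916), went from 243 and 315 CPM at 51 mM to 36.8 and 43.3 CPM at 200 mM. Both control libraries were several times above both stressed ones, and the log2 fold change was -2.79 ± 0.13 (adjusted p = 4.7e-07). It was called in the fit without the pairing as well. The anion transporter *abts-4* was the raised member, by 0.70 ± 0.15, and was not called without the pairing or with a pair left out. Of 13 known regulators of the osmotic response 7.69% were raised, against 1.47% of all loci. The raised one was *ogt-1*, the O-GlcNAc transferase needed for osmotic adaptation, from 145 and 146 CPM to 222 and 234 CPM (log2 fold change 0.65 ± 0.09, adjusted p = 0.0021). Without pair 2 its adjusted p was 0.057.

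Epidermal antimicrobial peptide genes made up the next group. *nlp-24* to *nlp-34* encode small glycine-rich peptides, several of which are known to respond to osmotic stress, wounding and fungal infection in the epidermis. Of 11 listed, 10 were tested, 5 were raised (*nlp-28*, *nlp-29*, *nlp-30*, *nlp-31* and *nlp-34*) and *nlp-27* was lowered. These are 50% and 10% of those tested, against 1.47% and 1.77% of all loci. Of the 6 calls, 2 were made without the pairing, 4 without pair 1 and 4 without pair 2.

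*nlp-29*, the member most used as a reporter, stood at 22.2 and 23.2 CPM in control worms and 119 and 134 CPM in stressed worms. The duplicates were close within each group and far apart between groups, a log2 fold change of 2.48 ± 0.13 (adjusted p = 1.2e-06). *nlp-30* changed as much from a lower base, from 1.79 and 2.47 CPM to 8.79 and 15.8 CPM (2.50 ± 0.22). *nlp-28* went from 24.2 and 26.6 CPM to 80.8 and 86.8 CPM (1.72 ± 0.11). These 3 genes, *nlp-31* and *nlp-34* lie side by side between 3978825 and 3988316 on chromosome V, a stretch whose ends were set by the raised loci themselves. *nlp-27*, which follows directly at 3989378, was lowered. It had 188 and 181 CPM at 51 mM and 76.9 and 122 CPM at 200 mM, a log2 fold change of -0.93 ± 0.15 (adjusted p = 0.0050), and *nlp-24*, *nlp-25*, *nlp-26* and *nlp-33* were not called, with log2 fold changes between -0.72 and 0.01.

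The caenacins are a related family of epidermal peptides, of which 7 of 11 loci were tested and 1, *cnc-7*, was raised. Over both libraries it had 3 counts at 51 mM and 186 at 200 mM, a ratio of 62.4 with a 95% counting interval of 21.03 to 305. In CPM it was at 0.050 and 0.103 and then at 6.34 and 3.14. The other tested caenacins had log2 fold changes between -0.97 and 0.44 and were not called, among them *cnc-2* with 1.195 and 1.13 CPM and then 0.920 and 1.07 CPM. Of 15 loci of the epidermal pathway known to control these peptides, none was called in edgeR, DESeq2 or limma voom, and 2 raised and 1 lowered had a raw p at or under 0.05 in edgeR.

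Lysozymes cut the bacterial cell wall. Of their tested loci 23.1% were raised and 7.69% lowered, against 1.47% and 1.77% of all loci. *ilys-2* (chromosome IV, 2467678 to 2468879), an invertebrate-type lysozyme, was at 0.199 and 0.565 CPM at 51 mM and 23.5 and 40.9 CPM at 200 mM. The gene was close to the limit of counting in control worms and plainly detected in both stressed libraries, a log2 fold change of 6.39 ± 0.27 (adjusted p = 3.8e-07). Its neighbor *ilys-3* had 2 counts at 51 mM and 67 at 200 mM (ratio 33.7, counting interval 8.98 to 284). *lys-8* was raised by 0.58 ± 0.13 and *lys-2* was lowered, from 100 and 229 CPM to 59.0 and 48.0 CPM (log2 fold change -1.51 ± 0.25, adjusted p = 0.0052). The other 9 of the 13 tested lysozyme loci were not called, and of the 4 calls 1 was made without the pairing, 3 without pair 1 and 3 without pair 2.

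**Figure D4:**
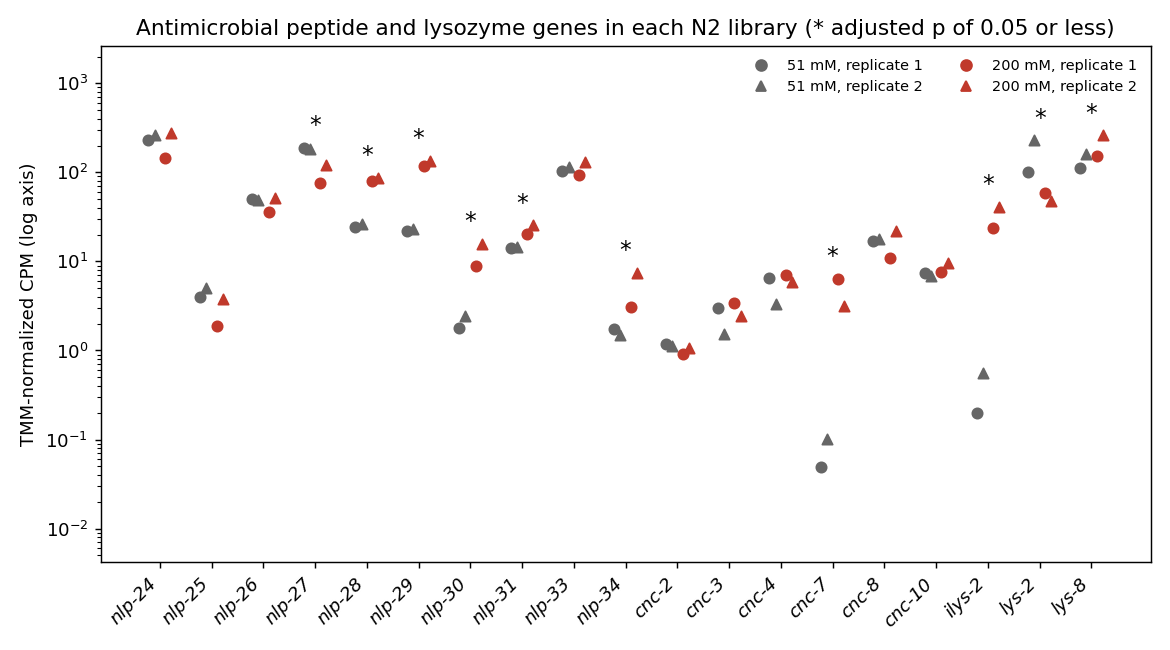
Level of each tested *nlp-24* to *nlp-34* gene, of 6 caenacin genes and of the lysozyme genes *ilys-2*, *lys-2* and *lys-8* in each N2 library (CPM, log axis), grey at 51 mM and red at 200 mM NaCl, with circles for replicate 1, triangles for replicate 2 and a star at adjusted p of 0.05 or less. Of the starred genes *nlp-28* to *nlp-31*, *nlp-34*, *cnc-7* and *ilys-2* have both red points above both grey ones, and *nlp-27* and *lys-2* have both below. Without a star, *cnc-10* has both above, and *nlp-25* and *cnc-2* have both below.

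C-type lectins, many of which are secreted by the intestine and respond to bacteria, changed both ways. Of 264 listed loci 133 were tested, 4 were raised and 9 lowered, 3.01% and 6.77% against 1.47% and 1.77% of all loci. *clec-218* was raised from 23.9 and 34.2 CPM to 70.1 and 86.8 CPM (log2 fold change 1.45 ± 0.13), and *clec-48*, *clec-49* and *clec-62* were raised by between 0.65 and 0.85. *clec-47*, the most abundant of those lowered, had 451 and 471 CPM and then 194 and 251 CPM, and *clec-4* fell by 2.29 on the log2 scale. Of the 13 calls, 1 was made without the pairing, 7 without pair 1 and 3 without pair 2. *pals-23* and *pals-24*, of a family named for a shared domain and known for its response to intracellular pathogens, were lowered, neither of them called without the pairing, and the other 22 tested members were not called. The lowered share was 8.33%, against 1.77% of all loci. *pals-24* overlaps *C29F9.12* on the opposite strand by 529 bases.

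Fatty acid metabolism gave the largest number of raised loci of any list in the paired fit over all 12 libraries. Its share was not the largest, since 57.1% of osmolyte loci were raised. In a paired fit to the N2 libraries alone the collagens gave more, 40 against 14. Of 68 loci, all tested, 14 were raised and 4 lowered, 20.6% and 5.88% against 1.47% and 1.77% of all loci, and the median over the list was 0.10. The raised members are mostly genes that bring fatty acids into mitochondria and oxidize them. Carnitine palmitoyltransferases, which carry long-chain acyl groups across the mitochondrial membranes, were represented by *cpt-1*, *cpt-2*, *cpt-3*, *cpt-4* and *cpt-5*. Without the pairing 1 of the 18 calls was made, that of *cpt-3*, while 13 were made without pair 1 and 8 without pair 2.

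*cpt-3* was at 1.15 and 0.771 CPM in control worms and at 14.7 and 14.8 CPM in stressed worms. The stressed duplicates were almost equal, and the log2 fold change was 3.94 ± 0.26 (adjusted p = 9.2e-06). *cpt-4* went from 5.38 and 5.55 CPM to 18.9 and 16.3 CPM, and the far more abundant *cpt-1* from 150 and 111 CPM to 249 and 303 CPM. Neither gene's groups overlapped, with log2 fold changes of 1.68 ± 0.24 and 1.09 ± 0.14. The acyl-CoA synthetase *acs-2*, which activates fatty acids for oxidation, had 104 and 148 CPM at 51 mM and 267 and 424 CPM at 200 mM (1.44 ± 0.16, adjusted p = 3.3e-04). The acyl-CoA dehydrogenases *acdh-10* (1.03), *acdh-7* (0.97) and *acdh-9* (0.55) were raised too.

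The 4 lowered members make or modify fatty acids. *fat-7*, a stearoyl-CoA desaturase, had 166 and 92.2 CPM at 51 mM and 51.1 and 37.97 CPM at 200 mM. Both stressed libraries lay below both controls (log2 fold change -1.49 ± 0.16, adjusted p = 3.0e-04). The elongases *elo-5*, *elo-2* and *elo-6* fell by 0.97, 0.73 and 0.72 on the log2 scale. The desaturase *fat-5* went the other way, from 23.5 and 16.8 CPM to 38.4 and 34.3 CPM. Outside this list *hacd-1*, a hydroxyacyl-CoA dehydrogenase, was lowered from 107 and 124 CPM to 23.9 and 30.5 CPM (log2 fold change -2.09 ± 0.13).

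UDP-glucuronosyltransferases, which attach sugars to small lipophilic compounds for removal, were lowered without exception among the calls. Of 61 tested loci 17 were lowered, 27.9% against 1.77% of all loci, and none was raised in edgeR, DESeq2 or limma voom, with 3 raised loci at a raw p at or under 0.05 in edgeR. The stressed libraries lay below both controls for 22 of the 61 and above them for 8, against 13.1% and 13.8% of all loci, so that the second count is at the background. The median log2 fold change was -0.29. At 51 mM their summed level was 1755 and 2497 CPM, and at 200 mM it was 1331 and 1736 CPM, so that each pair dropped while the groups lay close to each other. *ugt-66* went from 42.9 and 51.1 CPM to 8.28 and 13.1 CPM (log2 fold change -2.16 ± 0.18, adjusted p = 4.6e-05). *ugt-63* was uneven at 51 mM, with 28.98 and 85.1 CPM, and was at 9.82 and 11.96 CPM at 200 mM. *ugt-26* (124 and 227 CPM, then 51.5 and 86.7 CPM) and *ugt-41* (86.2 and 85.4 CPM, then 31.7 and 27.5 CPM) showed the same separation at higher levels. Without the pairing 1 of the 17 calls was made, that of *ugt-66*, 9 were made without pair 1, and 9, not all of them the same, without pair 2.

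The other detoxification families were mixed. Of 58 cytochrome P450 loci, 4 were raised and 1 was lowered, 6.90% and 1.72% against 1.47% and 1.77% of all loci, and the family median was 0.00. *cyp-13B1* was raised from 1.94 and 2.57 CPM to 17.1 and 16.3 CPM (log2 fold change 2.89 ± 0.21, adjusted p = 1.8e-05), a call also made without the pairing. *cyp-32B1*, *cyp-34A2* and *cyp-37B1* were the other raised members and *cyp-13A5* the lowered one, and of these 5 calls 4 were made without pair 1 and 2 without pair 2. Among 43 glutathione S-transferase loci, *gst-13* was lowered from 51.9 and 68.0 CPM to 25.6 and 27.4 CPM, *gst-6* was lowered and *gsto-3* raised, and of the 3 *gst-13* alone was called without the pairing and with either pair left out. The glutathione S-transferase shares were 2.33% raised and 4.65% lowered, against 1.47% and 1.77% of all loci. *cdr-4* and *cdr-7*, cadmium-responsive genes on chromosome V with the lowered *hrg-2* between them, were lowered by 0.92 and 0.74 on the log2 scale. Neither was called without the pairing, *cdr-4* was not called without pair 1 and *cdr-7* not without pair 2.

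Cuticle and molting genes moved differently in the pairs. Of 150 tested collagen loci 2 were raised (*col-90* and *col-176*) and 3 lowered (*col-101*, *col-143* and *col-149*). These shares, 1.33% and 2.0%, are near the 1.47% and 1.77% of all loci, and none of the 5 calls was made without the pairing. The median log2 ratio of the list was -0.25 in pair 1 and 0.58 in pair 2. Without pair 1, 25 collagen loci were raised, without pair 2 none was, and a fit to the 4 N2 libraries alone raised 40. Their summed level was 64420 and 62940 CPM at 51 mM and 45400 and 71370 CPM at 200 mM. The markers of the epidermis, which secretes the cuticle, summed to 466 and 784 CPM at 51 mM and 479 and 1023 CPM at 200 mM, the 3 pharynx markers to 167 and 210 and then 138 and 461 CPM, and the body wall muscle markers to 2880 and 3809 and then 2954 and 5155 CPM. In each of these tissues the highest library was replicate 2 at 200 mM. None of the 4, 3 and 4 markers was called in edgeR, 2, 1 and 1 of them had a raw p at or under 0.05, DESeq2 called 1 muscle marker, and none was at 0 in any library. The intestine markers summed to 1611 and 2325 CPM and then 1497 and 2438 CPM, and the 5 neuron markers to 170 and 183 and then 168.5 and 230 CPM. In both lists the highest library was again replicate 2 at 200 mM, while in the germ line list it was replicate 1 at 200 mM. Of the intestine markers *ges-1*, a gut esterase, was called as raised (0.53), but its groups overlapped and it was not called without the pairing. The part these tissue levels have in the results on single genes was not tested.

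Of the 3 lowered collagens, *col-101* and *col-149* were called with either pair left out and *col-143* was not. *col-149* had 413 and 651 CPM at 51 mM and 193 and 321 CPM at 200 mM (log2 fold change -1.06 ± 0.11, adjusted p = 2.4e-04). *col-101* had 758 and 342 CPM and then 206 and 103 CPM (-1.81 ± 0.19), and it overlaps *drl-1* on the other strand by 1586 bases. *col-143* had 900 and 423 CPM and then 509 and 239.8 CPM, so that its groups overlapped (adjusted p = 0.040, and 0.20 and 0.28 without pair 1 and pair 2). The 6 furrow collagen loci are *dpy-2*, *dpy-3*, *dpy-7* in a locus shared with *glb-16*, *dpy-8*, *dpy-9* and *dpy-10*, whose loss is known to switch on osmolyte genes. All 6 had both stressed libraries above both controls, against 13.8% of all tested loci, with log2 fold changes between 0.81 and 1.42. None of them was called by edgeR, although 5 had a raw p at or under 0.05, DESeq2 called *dpy-3*, and a fit to the 4 N2 libraries alone called all 6. Their smallest adjusted p was 0.059 for *dpy-3*, and their median log2 ratio was 0.58 in pair 1 and 1.59 in pair 2. Each of the 6 was described here after its values had been seen.

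Apical matrix and molting regulator lists gave few calls in number, but their raised shares were above the 1.47% of all loci. Raised were 5.88% of apical matrix loci and 6.06% of hedgehog-related and patched-related loci. The shares were 7.69% for molting regulators and 3.23% for astacin proteases. Of the hedgehog-related and patched-related loci 1.52% were lowered, against 1.77% of all loci. Of 51 apical matrix loci 3 were raised, *noah-1*, *lpr-3* and a locus that joins *mlt-11* with *W01F3.4* and *W01F3.5*, and none of the 3 was called without the pairing or without either pair. Among 66 hedgehog-related and patched-related loci 4 were raised (*grd-14*, *wrt-4*, *ptr-18* and *ptr-22*) and *wrt-8* was lowered, with a median of 0.02 in pair 1 and 0.59 in pair 2, and of these 5 calls none was made without the pairing or without pair 2. *peb-1* was the raised one of 13 molting regulators, and *nas-9* of 31 astacin proteases, and neither was called without the pairing or with a pair left out.

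Protein folding and degradation genes gave few calls at 6 h in number. Among small heat shock loci the lowered share was 23.1%, against 1.77% of all loci. Of the cathepsin and aspartyl protease loci 9.09% were raised and 4.55% lowered, against 1.47% and 1.77%. No locus was called in edgeR among 33 proteasome subunits, 8 chaperonin subunits, 24 autophagy genes, 81 ribosomal protein genes and 20 vacuolar ATPase subunits, and the largest median size among them was 0.07 on the log2 scale. At a raw p at or under 0.05 there were 1 raised autophagy locus and 1 raised and 1 lowered ribosomal protein locus, none in the other 3 lists, and DESeq2 and limma voom called none in any of the 5. Of 47 chaperone loci *enpl-1*, the Hsp90 of the endoplasmic reticulum, was raised, from 472 and 628 CPM to 658 and 849 CPM (log2 fold change 0.46 ± 0.11, adjusted p = 0.039). Its groups did not overlap, but it was called neither without the pairing nor without either pair. Of 13 small heat shock loci none was raised and 3 were lowered, *hsp-12.1* (-0.89), *hsp-12.3* (-0.67) and *hsp-43* (-0.42), calls that were not made without the pairing or without either pair, while DESeq2 and limma voom each called 5 lowered. The cathepsin-type proteases *cpr-1* and *cpr-8* were raised and the aspartyl protease *asp-8* was lowered, and none of the 3 was called without the pairing or with a pair left out.

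**Figure D5:**
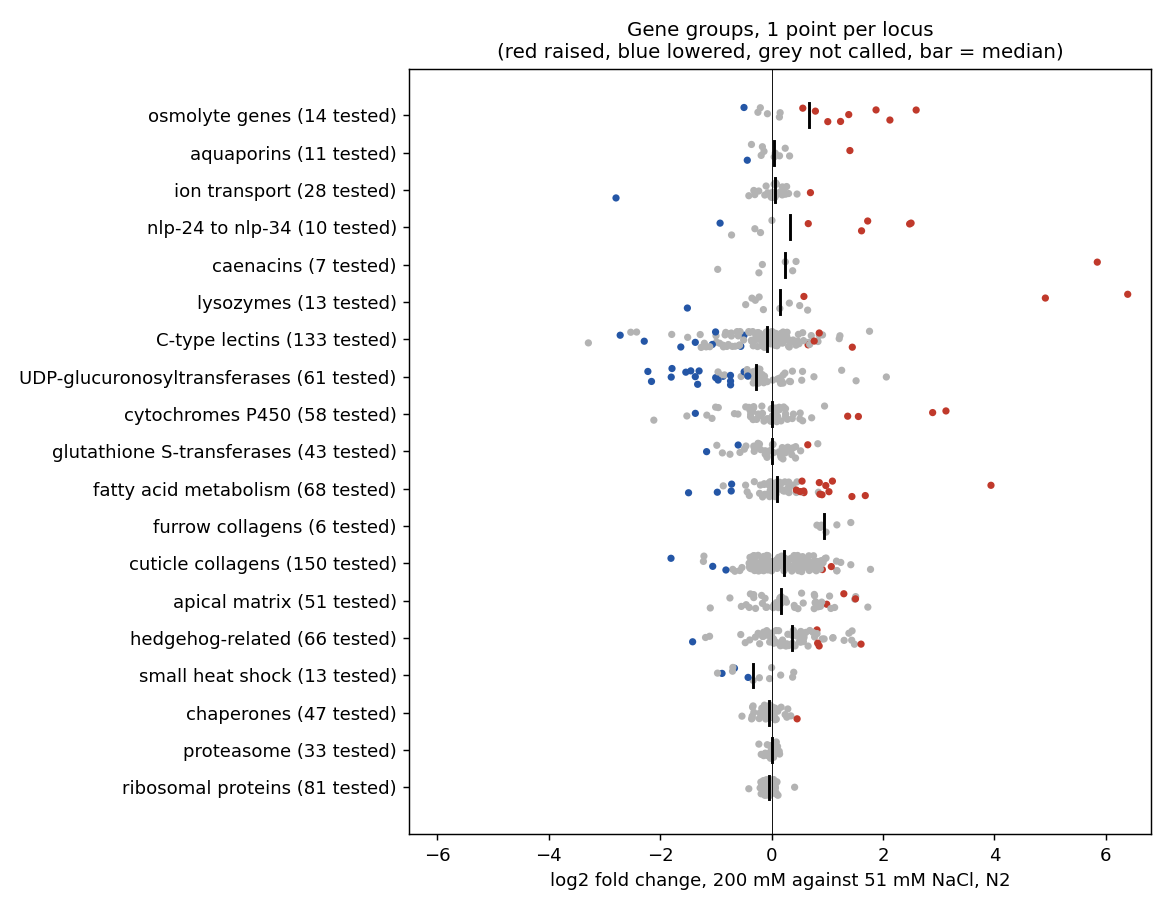
Log2 fold change at 200 against 51 mM NaCl in N2 for each tested locus of 19 gene groups, with raised loci red, lowered loci blue, loci not called grey and a black bar at the group's median. The osmolyte group has its median at 0.67, the UDP-glucuronosyltransferases have theirs at -0.29 with blue points only among the calls, and the proteasome and ribosomal protein groups lie close to 0.

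Among regulators, nuclear hormone receptors gave 5 raised and 1 lowered of 198 tested loci, 2.53% and 0.505%, which is near the 1.47% and 1.77% of all loci. Of the 6 calls 1 was made without the pairing, 3 without pair 1 and 1 without pair 2. *nhr-74* had 118 counts over both libraries at 51 mM and 3 at 200 mM, a ratio of 39.1 with a counting interval of 13.1 to 192. It stood at 3.39 and 2.57 CPM and then at 0.102 and 0.051 CPM, under the limit of 3 counts in both stressed libraries, so that the size of its fall is not known closely. *nhr-19* was the most raised receptor (1.21 ± 0.16). No neuropeptide gene of the 30 tested was called in edgeR, DESeq2 or limma voom, with 2 raised at a raw p at or under 0.05, and of 27 insulin-like loci the call was for a locus that *ins-13* shares with *acdh-2*.

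The remaining large changes were in genes of less known role. On the raised side *nspe-1*, *nspe-2* and *nspe-5* encode small nematode-specific peptides of one closely related family, so that reads may be split between copies and their single values are uncertain. *nspe-5* had 3 counts at 51 mM and 156 at 200 mM (ratio 52.4, counting interval 17.6 to 257). *nspe-1* was at 0.896 and 4.57 CPM and then at 9.36 and 24.8 CPM. Together with *nspe-7*, *Y38E10A.14* and *Y38E10A.28* they lie side by side between 12619173 and 12630630 on chromosome II, with no other tested locus in between, a stretch whose ends were set by the raised loci themselves. *K01A6.7* (3.58) and *F01D4.8* (2.88) were also raised, and *K01A6.7* overlaps *K01A6.6* on the opposite strand by 321 bases.

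On the lowered side *C32H11.4* (chromosome IV) had 14.9 and 18.7 CPM at 51 mM and 1.43 and 0.963 CPM at 200 mM. Control and stressed libraries were far apart, with a log2 fold change of -3.79 ± 0.26 (adjusted p = 1.3e-05), also called without the pairing. *oac-32*, named as an acyltransferase homolog, went from 5.88 and 15.4 CPM to 0.153 and 1.32 CPM (-3.92 ± 0.33). *txt-11*, *K11H12.4*, *T20D4.3*, *F26A1.8*, *B0205.13* and *T22B7.3* fell by between 2.21 and 3.46 on the log2 scale. *txt-11* and *T20D4.3* belong to a stretch of chromosome V, 3400252 to 3422779, drawn around 4 lowered loci and holding 6 tested ones.

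In *osm-9(ok1677)* 311 loci were raised and 488 lowered at 200 mM NaCl, 2.02% and 3.17% of those tested. Of the 227 raised loci 118 were also raised in the mutant, and of the 273 lowered 154 were also lowered there. A test of the difference between the strains' responses in edgeR called 10 loci, 0.0649% of those tested, of which 9 were N2 calls. *ilys-2* was among them, with a log2 fold change of 6.39 in N2 and 3.58 in the mutant, as were *catp-3* (-2.79 and -1.59) and *cyp-13B1* (2.89 and 0.98). For *gpdh-1* (2.12 and 2.02), *hmit-1.1* (2.59 and 2.95) and *nlp-29* (2.48 and 2.57) the difference was not called, with adjusted p of 0.96, 0.73 and 0.90.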

How the data were processed

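PolyA+ RNA of whole worms was sequenced by the authors as paired-end Illumina libraries. They aligned the reads to the WS235 genome with TopHat 1.4.1, mapped them to Ensembl genes with Cufflinks 2.0.1 and deposited whole-number read counts per locus. A locus can join several genes (702 of those tested), and strand use in the counting is not given in the sources used here. Each condition was repeated in independent experiments, and the labels do not say that a replicate number marks a shared day or batch.

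The deposited counts were fitted with edgeR 4.0.16 in R 4.3.3 over all 12 libraries, with TMM scaling, filterByExpr (minimum count 10, minimum total 15), 1 block for each strain and replicate number and 1 NaCl effect for each strain (4 residual degrees of freedom). The quasi-likelihood test was two-sided, with Benjamini-Hochberg adjustment over 15403 loci and a threshold of 0.05. CPM are TMM-scaled. The authors' tests compared groups pairwise with edgeR 3.2.4. The script was tested on simulated data.

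As a check of the pairing, deviations from the group means of same-numbered libraries correlated at 0.50 in N2, where 2 pairs give 1 contrast, and at between 0.49 and 0.79 in the 4 *osm-9(ok1677)* pairs. Differently numbered *osm-9(ok1677)* libraries correlated at between -0.64 and 0.48. The highest of these, replicate 4 at 51 mM with replicate 1 at 200 mM, was close to the lowest same-numbered value. The replicates of a group were separate libraries, since 59.5% and 61.9% of well counted loci differed beyond sampling noise.

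Genes were named by rule: among called single-gene loci with a mean of at least 1 CPM, both pairs changed the same way and no overlap of groups, the 12 largest rises and 12 largest falls, up to 4 called members with the smallest p in each of 46 gene lists, and all osmolyte, *nlp-24* to *nlp-34* and caenacin genes. Other genes named were chosen after their values were seen. The lists, the comparison and the rule were chosen with earlier results of these data known. Gene positions and strands come from the Ensembl WBcel235 annotation, matched by sequence name for 15247 tested loci. Alternatives were no block, a block shared across strains, N2 alone, RLE, upper quartile and total count scaling, other filters, DESeq2 1.42.0, limma voom 3.58.1, an unadjusted threshold and leaving out a pair.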

Additional observations from a re-analysis of the deposited data

Results flagged for a closer look

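The log2 response to NaCl in N2 minus that in *osm-9(ok1677)* passed the test of the difference in edgeR at 10 loci. The N2 value was the higher one for *ilys-2* (difference 2.81), *nspe-1* (2.61), *cyp-13B1* (1.91), *T26H5.9* (1.85) and *C09F9.2* (1.55, adjusted p = 0.047). It was the lower one for *C32H11.4* (-2.42), *hacd-1* (-1.29), *catp-3* (-1.21) and *F11A5.9* (-1.18). In the mutant *nspe-1* (log2 fold change 0.16), *T26H5.9*, *C09F9.2* (-0.44, against 1.12 in N2) and *F11A5.9* were not called.

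*hacd-1*, a hydroxyacyl-CoA dehydrogenase, had 107 and 124 CPM at 51 mM and 23.9 and 30.5 CPM at 200 mM in N2, a log2 fold change of -2.09 against -0.80 in the mutant. *T26H5.9* went from 2.19 and 5.09 CPM to 10.5 and 16.98 CPM in N2 (1.96), against a log2 fold change of 0.11 in the mutant. *F11A5.9* was lowered in N2 (-1.33) and had -0.14 in the mutant.

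The ribosomal RNA locus *rrn-3.1* had a fitted difference of -20.52, which is no bound, because all 4 mutant libraries at 51 mM are listed at 0 counts. In N2 it stood at 12690 and 9603 CPM and then at 9759 and 12360 CPM, a log2 fold change of -0.01.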

How the results depend on the processing

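The counts depended most on how the replicate block was set. Without the block, 13 loci were raised and 17 lowered, with a replicate block by number shared across strains 108 and 114, and with the block in the N2 libraries alone 537 and 497 (4 and 3 without it there). With no filter on low counts 380 were raised, and at a raw p at or under 0.05 1241 were raised and 1171 lowered. Leaving out 1 pair gave between 56 and 180 raised and between 100 and 143 lowered loci, and the raised share of all calls was 55.7% without pair 1 and 35.9% without pair 2, against 45.4%. The lone pair is then assumed to vary like the *osm-9(ok1677)* pairs. Other scalings, a count of at least 10 in every library, DESeq2 and limma voom stayed within 1.5 times both counts. The cause of these shifts was not tested.

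The 10 loci whose response differed between strains became 1 without the block or with the shared block, 56 with RLE factors, 81 with total counts, 369 with no filter, 4 with at least 10 counts everywhere, 156 in DESeq2, 1451 at a raw p at or under 0.05, and between 1 and 168 when a pair was left out. Of 1235 values of the 96 called named genes under alternatives, 909 kept their call, 326 kept their direction but lost the call and 0 reversed. These genes were chosen from calls in the same libraries, where nearly all called loci changed the same way in both pairs. A reversal was therefore unlikely from the start, and the lack of reversals is no separate test of direction.

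The spread behind the p-values was estimated over the 2 N2 pairs and the 4 *osm-9(ok1677)* pairs, with 4 residual degrees of freedom. It therefore rests more on the mutant pairs than on the N2 pairs, and the p-values measure the spread between these libraries and pairs only. Loci near 3 counts in a group carry wide counting intervals, and the size of a change to or from a level under 0.140 to 0.154 CPM is known only within them.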

Other observations

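Further gene groups were picked out after their values were seen, and their counts are given as a description against 1.47% raised and 1.77% lowered of all tested loci. Glycerol-3-phosphate phosphatase homologs, which would take glycerol-3-phosphate to glycerol, were raised at both tested loci. *pgph-2* had 13.3 and 31.5 CPM at 51 mM and 69.6 and 90.03 CPM at 200 mM (log2 fold change 1.93 ± 0.19), and *pgph-3* had 52.7 and 132 CPM and then 122 and 180 CPM (0.82 ± 0.16). The groups of *pgph-2* did not overlap and those of *pgph-3* did. Neither gene was called without the pairing. Of 30 loci of peroxisomes, which shorten long fatty acids, 8 were raised and none lowered in edgeR, DESeq2 and limma voom, led by the acyl-CoA oxidase *acox-3*, from 20.5 and 36.1 CPM to 42.9 and 58.0 CPM (0.87 ± 0.12), with *daf-22*, *maoc-1*, *dhs-28* and the protease *lonp-2* among them. None of these 8 calls was made without the pairing. *lea-1*, a gene of the late embryogenesis abundant family known from desiccation, was raised from 333 and 311 CPM to 431 and 495 CPM (0.52).

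Other families had lowered members. Of 15 P-glycoprotein loci, ABC transporters that export small molecules, 4 were lowered (*pgp-6*, *pgp-5*, *pgp-9* and *pgp-1*), with *pgp-6* at 45.7 and 106 CPM and then 11.3 and 30.8 CPM (-1.89 ± 0.14). The stressed libraries lay below both controls for *pgp-6*. Of 8 tested infection response loci 4 were lowered, *irg-1* (-1.99), *irg-2* (-1.91), *irg-8* (-0.54) and the transcription factor *zip-2* (-0.50), which is known to control *irg-1*. Of 9 *dod* loci, named for dependence on the transcription factor DAF-16, 4 were lowered, with *dod-24* at 20.7 and 23.5 CPM and then 5.83 and 4.56 CPM (-2.09 ± 0.19). None of the 12 calls in these lists was made without the pairing. *msra-1*, a methionine sulfoxide reductase that repairs oxidized protein, was among the most abundant lowered genes, from 903 and 1373 CPM to 269 and 455 CPM (-1.67), and was called without the pairing too.

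Chromosome V held 60 raised and 94 lowered of its 3081 tested loci (1.95% and 3.05%), against 1.47% and 1.77% of all tested loci. Chromosome X held 52 and 34 of 2154 (2.41% and 1.58%), and chromosome I 15 and 30 of 2444 (0.614% and 1.23%).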
